A study of Mus musculus with 12 samples.

Results

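The genes described here are 31 glycolytic genes of the mouse, from glucose uptake at the plasma membrane to the entry of pyruvate into the mitochondrion. They were chosen by name, as a pathway list, and each was represented by the assembled locus that matched its symbol, the locus with most counts where several did. All 31 had a locus among the 17911 loci tested, out of 79655 loci with exon positions. The list comprises 2 glucose transporters, 16 enzymes of the path from glucose to pyruvate, 3 bifunctional enzymes that set the level of fructose 2,6-bisphosphate, 2 subunits of lactate dehydrogenase, 2 monocarboxylate transporters, 4 kinases of pyruvate dehydrogenase and 2 subunits of pyruvate dehydrogenase itself.

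Glycolysis splits glucose into pyruvate and yields ATP without oxygen. Pyruvate is then either reduced to lactate by lactate dehydrogenase and exported through monocarboxylate transporters, or it enters the mitochondrion and is converted to acetyl-CoA by the pyruvate dehydrogenase complex, which PDH kinases switch off by phosphorylation. Pluripotent stem cells are known for a high glycolytic rate, and several of these genes are textbook targets of the hypoxia-inducible factor HIF1.

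Poly(A) RNA was sequenced from 12 libraries, 4 in each of 3 groups, to follow mouse embryonic stem cells (ESCs) into mesendoderm. The cells in every group came from 1 reporter ESC line of C57BL/6 background with an EGFP cassette in the endogenous Eomes gene, which encodes a T-box factor of mesendoderm. The ESC group was taken at day 0 from cells grown on mouse embryonic fibroblast feeders in high-glucose DMEM with serum and LIF. The other 2 groups were taken at day 3 from embryoid bodies made in hanging drops in an IMDM-based medium, which were dissociated and sorted by GFP into Eo− (Eomes-negative) and Eo+ (Eomes-positive) cells. Libraries carry the replicate numbers 1, 2, 5 and 6, and the study's methods name 4 differentiation sets; same-numbered Eo− and Eo+ libraries deviated together from their group means and were read as 1 set each. In comparisons with ESC, the day, the medium, the aggregation and the feeder layer cannot be told apart. In bulk RNA, fewer cells expressing a gene and less of its RNA per cell cannot be told apart either.

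Reference sequence upstream of 4 genes is shown because these genes were among those with the largest fold changes (Pdk1, Slc16a1 and Pfkp) or rose in Eo+ against ESC where Gapdh, Pkm, Eno1 and Aldoa fell (Ldha). Each is the 250 bases before the first start site of the gene in RefSeq (GRCm38.p6), 5′ to 3′ on the strand of the gene, and capitals mark ACGTG or GCGTG on either strand, the core letters of the hypoxia response element to which HIF1 binds.
Pdk1, chr2:71872974-71873223, plus strand: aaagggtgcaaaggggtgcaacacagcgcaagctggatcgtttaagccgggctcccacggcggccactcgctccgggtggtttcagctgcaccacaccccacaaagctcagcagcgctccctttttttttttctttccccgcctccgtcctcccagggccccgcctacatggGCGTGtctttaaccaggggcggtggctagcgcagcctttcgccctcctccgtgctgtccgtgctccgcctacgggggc
Slc16a1, chr3:104638414-104638663, plus strand: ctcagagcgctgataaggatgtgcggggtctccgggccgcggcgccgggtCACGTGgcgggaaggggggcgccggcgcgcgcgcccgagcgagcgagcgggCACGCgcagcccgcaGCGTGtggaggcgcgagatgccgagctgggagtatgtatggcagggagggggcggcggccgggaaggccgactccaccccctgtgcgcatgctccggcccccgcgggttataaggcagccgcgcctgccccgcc
Ldha, chr7:46845554-46845803, plus strand: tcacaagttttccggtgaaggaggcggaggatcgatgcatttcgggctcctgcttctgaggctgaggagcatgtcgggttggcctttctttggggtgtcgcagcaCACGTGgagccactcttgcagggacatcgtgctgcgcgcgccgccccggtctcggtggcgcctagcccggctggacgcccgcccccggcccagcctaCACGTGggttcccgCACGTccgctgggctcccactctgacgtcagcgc
Pfkp, chr13:6648772-6649021, minus strand: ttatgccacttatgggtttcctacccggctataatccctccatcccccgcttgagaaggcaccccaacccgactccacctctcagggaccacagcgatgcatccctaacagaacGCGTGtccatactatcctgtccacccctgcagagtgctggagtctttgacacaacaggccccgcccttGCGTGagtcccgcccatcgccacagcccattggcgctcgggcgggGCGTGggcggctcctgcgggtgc
The window of Pdk1 holds 1 GCGTG, and that of Pfkp holds 3. The Ldha window holds CACGTG 2 times, an E-box whose letters contain ACGTG on both strands, and the Slc16a1 window holds it 1 time. RefSeq promoters were at hand for 30 of the 31 genes, all but Slc2a3. In windows of 250 bases before and 50 after the start, searched on both strands, ACGTG or GCGTG occurred for 27 of the 30 genes, beside 64.6% of the 12270 genes of tested loci and 46.7% of all 27025 genes in the table. A gene was counted if any of its windows held a match, and the 30 genes had more windows per gene than tested loci. By window, 37 of 46 (80.4%) held a match, beside 59.2% of the 15529 windows of tested loci. These matches are letters in a window, and no binding was measured.

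The libraries held 648413022 to 837308168 counts each in loci. Eomes, the sort gene, averaged 46.4 ± 8.81 CPM (counts scaled to a common library size, here after TMM scaling; mean ± SD, n = 4) in ESC, 137 ± 22.2 in Eo− and 527 ± 96.9 in Eo+, so the order of the groups matched the sort. Of 7 mesendoderm markers, 7 rose in Eo+ against Eo−, and of 7 pluripotency markers, 7 fell in Eo+ against ESC. Markers of other cells varied inside the groups. Summed feeder fibroblast markers (10 genes) lay at 102 to 247 CPM in ESC and at 29.1 to 43 CPM on day 3, visceral endoderm markers (6 genes) at 80.4, 4.42, 40.9 and 16.8 CPM in Eo+ replicates 1, 2, 5 and 6, and primitive erythroid markers (6 genes) at 107 CPM in Eo− replicate 1 beside 4.89 to 7.04 CPM in the other Eo− libraries. The feeder marker S100a4 was at 0 counts in Eo+ replicate 2, the visceral endoderm marker Apoa4 at 0 in ESC replicates 1, 2 and 6, and the erythroid marker Hbb-bh1 at 0 in ESC replicates 1 and 5. The part of these cells in the results below was not tested.

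The 31 glycolytic genes together took 1.97 ± 0.313% of the locus counts in ESC, 2.07 ± 0.2% in Eo− and 1.65 ± 0.153% in Eo+ (mean ± SD, n = 4). By library the share was 1.81, 2.31, 1.62 and 2.13% in ESC replicates 1, 2, 5 and 6, 1.89, 2.32, 2.13 and 1.92% in Eo−, and 1.52, 1.70, 1.85 and 1.54% in Eo+. The Eo+ shares were all below those of Eo−, whereas the ESC shares spread over the range of both fractions. With TMM-scaled library sizes as the denominator the ranges of the fractions met, at 1.51 to 1.78% in Eo+ and 1.78 to 2.31% in Eo−, with ESC at 1.65 to 2.42%. Gapdh, which encodes glyceraldehyde-3-phosphate dehydrogenase, took 20.5% of the counts of the 31 genes, and together with Pkm, Eno1, Ldha and Aldoa it took 72.8%.

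**Figure D1:**
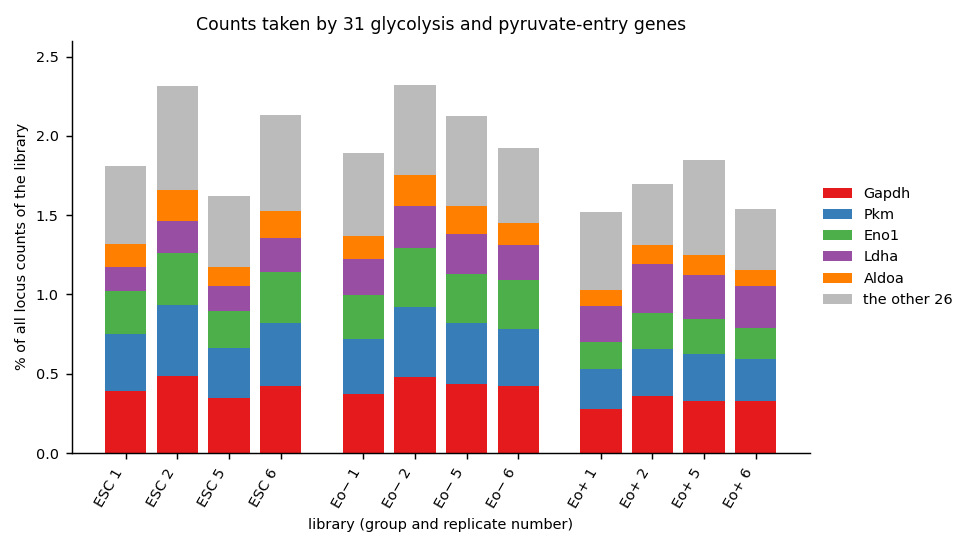
Percent of all locus counts (vertical axis) taken by the 31 glycolytic genes in each of the 12 libraries, as stacked bars for Gapdh, Pkm, Eno1, Ldha, Aldoa and the sum of the other 26. The 4 Eo+ bars end between 1.52 and 1.85%, below the 4 Eo− bars at 1.89 to 2.32%.

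Between Eo+ and ESC, 20 of the 31 genes passed the test (limma, adjusted p of at most 0.05), a share below that of all loci, of which 71.9% passed. The direction was uneven, since 4 genes rose and 16 fell, whereas 35.8% of all loci rose and 36.1% fell. The 4 that rose were Ldha, Slc16a1, Pdk2 and Pfkfb4. In 4 of the rising and 14 of the falling genes the libraries of the groups did not overlap (32.2% and 32.3% of all loci). The median log2 fold change was -0.40 over the 31 genes and 0.00 over all loci. A change of at least 2-fold was found for 1 rising gene (Slc16a1) and 4 falling genes (Pfkp, Pdk1, Pdk4 and Pfkfb3), beside 16.3% and 21.8% of all loci.

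Between Eo− and ESC, 17 genes passed (62.2% of all loci), 8 of them higher and 9 lower (30.9% and 31.3%), and the median log2 fold change was -0.01, beside 0.02 over all loci. Libraries did not overlap for 4 higher and 8 lower genes (27.6% and 28.2%). Pfkm and Slc16a3 rose and Slc2a3, Pfkp and Pdk4 fell by at least 2-fold (11.9% and 16.3% of all loci).

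Between the sorted fractions, 20 genes passed (47.7% of all loci), 4 higher in Eo+ (23.0%) and 16 lower (24.7%), with a median log2 fold change of -0.37 beside -0.01. Those higher in Eo+ were Slc2a3, Slc16a1, Pfkfb2 and Pdha1. Libraries did not overlap for 3 higher and 15 lower genes (22.3% and 23.6%), and at least 2-fold changes were found for 1 higher gene (Slc16a1) and 4 lower genes (Slc2a1, Pfkp, Aldoc and Pdk1; 6.12% and 15.0% of all loci). Compared within each differentiation set, Eo+ lay below Eo− in all 4 sets for 20 genes and above it in all 4 for 4 genes, beside 33.6% and 33.0% of all loci. With the differentiation set as a block, which accounts for the shared origin of the fractions, 23 genes passed, while the calls over all loci also went up, from 47.7% to 53.3%. The additional genes were Pfkl (adjusted p = 0.041), Pgam1 (0.0464) and Eno3 (0.0456), all lower in Eo+. This block was fitted over all 12 libraries, so the ESC libraries entered under their set numbers, although ESC was not taken as paired. Pfkl, Pgam1 and Eno3 also passed with the block over the day 3 libraries alone (adjusted p = 0.000629, 0.0429 and 0.0255). That fit was chosen after the data were seen, and 58.0% of all loci passed in it. The comparisons with ESC share the ESC libraries, and each is therefore given on its own.

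**Figure D2:**
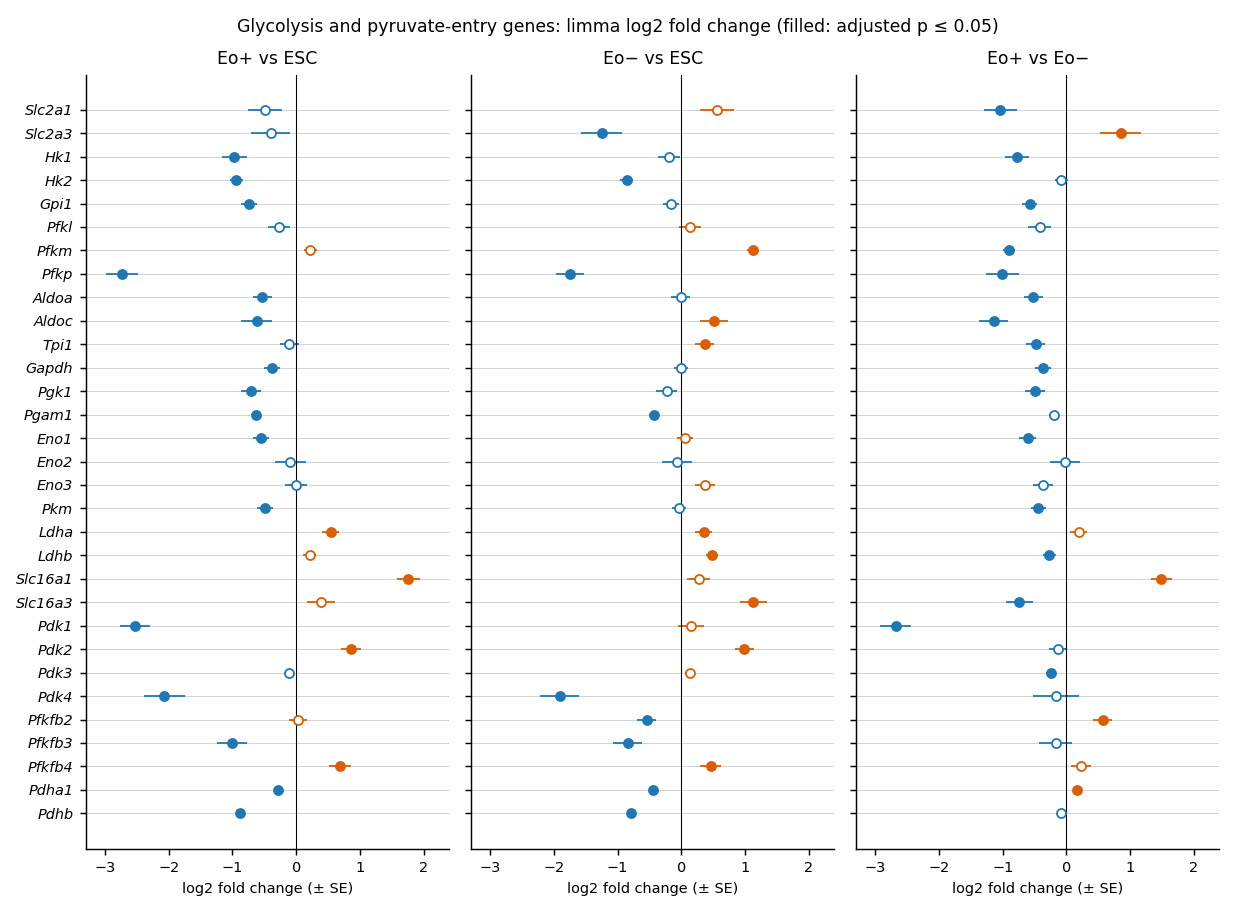
Log2 fold change with its standard error (horizontal axis) of each of the 31 genes, ordered by role, for Eo+ against ESC, Eo− against ESC and Eo+ against Eo−, with filled symbols where the adjusted p is at most 0.05. The enzymes from glucose to pyruvate lie mostly left of 0 in both comparisons that involve Eo+, and Slc16a1 lies far to the right.

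Slc2a1 (GLUT1) and Slc2a3 (GLUT3), both carriers of facilitated glucose uptake, differed between the fractions in opposite directions. Slc2a1 measured 351, 705, 347 and 570 CPM in ESC replicates 1, 2, 5 and 6, 621, 725, 896 and 566 CPM in Eo−, and 365, 252, 535 and 256 CPM in Eo+. Every Eo+ library was below every Eo− library, 2.06-fold on average (log2 fold change -1.04 ± 0.26 SE, adjusted p = 0.00503), while ESC overlapped both (adjusted p = 0.115 for Eo+ and 0.0758 for Eo−). Slc2a3 measured 732, 1088, 639 and 933 CPM in ESC, 435, 341, 330 and 306 CPM in Eo−, and 884, 319, 1147 and 487 CPM in Eo+. Eo− was below every ESC library (log2 fold change -1.25 ± 0.32, adjusted p = 0.00366), whereas Eo+ replicates 1 and 5 reached the level of ESC and replicate 2 that of Eo−.

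The difference of Slc2a3 between Eo+ and Eo− (0.85 ± 0.32, adjusted p = 0.0413) depended on single libraries. It was 0.57 without Eo+ replicate 5 (adjusted p = 0.111) and 0.69 without Eo+ replicate 1 (adjusted p = 0.108), and it likewise missed the threshold without Eo− replicate 2, 5 or 6 (adjusted p = 0.0805, 0.0848 and 0.0908) and without ESC replicate 6 (0.0501). Without both Eo+ replicates 1 and 5 it was 0.17 (adjusted p = 0.56), and Slc2a3 was then lower in Eo+ than in ESC (-1.07, adjusted p = 0.000775). These are also the 2 Eo+ libraries with most visceral endoderm marker RNA. The fall in Eo− against ESC missed the threshold without ESC replicates 2 and 6 (-0.97, adjusted p = 0.0579). For Slc2a1, the comparison of Eo+ with ESC passed without Eo+ replicate 5 (-0.70, adjusted p = 0.0227), and that of Eo− with ESC passed without ESC replicate 2 (0.75, adjusted p = 0.023) or without Eo+ replicate 5 (0.56, adjusted p = 0.0437).

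Of the 16 enzymes from glucose to pyruvate, 11 fell and none rose in Eo+ against ESC (median log2 fold change -0.54; 36.1% of all loci fell and 35.8% rose). In Eo+ against Eo−, 11 were again lower and none higher (median -0.48; 24.7% and 23.0% of all loci). In Eo− against ESC, 3 rose, 3 fell and 10 did not pass (median -0.03; 30.9% of all loci rose and 31.3% fell).

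Hexokinase traps glucose as glucose 6-phosphate. Hk2, the major hexokinase here by FPKM, measured 206, 273, 181 and 222 CPM in ESC, 114, 122, 123 and 120 CPM in Eo−, and 109, 117, 108 and 121 CPM in Eo+. Both fractions were below ESC in every library (log2 fold change -0.94 ± 0.10 for Eo+, adjusted p = 1.54e-06, and -0.86 ± 0.10 for Eo−, adjusted p = 6.77e-06), and the fractions overlapped (adjusted p = 0.55). Hk1 averaged 37.5 ± 9.19 CPM in ESC, 32 ± 3.11 CPM in Eo− and 18.8 ± 3.6 CPM in Eo+, and was lower in Eo+ than in either group (-0.97 ± 0.19, adjusted p = 0.000323, and -0.78 ± 0.19, adjusted p = 0.00368). In Eo− against ESC, Hk1 passed without ESC replicate 5 (-0.38, adjusted p = 0.0181). Gpi1, the isomerase that makes fructose 6-phosphate, measured 674, 904, 576 and 748 CPM in ESC, 576, 752, 658 and 586 CPM in Eo−, and 420, 433, 467 and 395 CPM in Eo+. Eo+ was below all libraries of both other groups (-0.74 ± 0.12 against ESC, adjusted p = 9.03e-05; -0.58 ± 0.12 against Eo−, adjusted p = 0.00163).

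Phosphofructokinase, the committed and most regulated step, has muscle (Pfkm), liver (Pfkl) and platelet (Pfkp) subunits. Pfkp measured 161, 225, 107 and 220 CPM in ESC, 51.1, 62.5, 57.9 and 37.3 CPM in Eo−, and 33.4, 23.1, 24.2 and 22.2 CPM in Eo+. The 3 groups did not overlap. Pfkp fell 6.69-fold in Eo+ (-2.74 ± 0.25, adjusted p = 3.21e-07) and 3.33-fold in Eo− (-1.74 ± 0.22, adjusted p = 1.77e-05), and was 2.01-fold lower in Eo+ than in Eo− (adjusted p = 0.00634). Pfkm went another way, at 44.1, 44.4, 38.8 and 50.8 CPM in ESC, 84.8, 110, 97.9 and 93.8 CPM in Eo−, and 51.7, 52.2, 53.7 and 48.1 CPM in Eo+. It stood apart in Eo−, 2.17-fold above ESC (1.12 ± 0.09, adjusted p = 3.21e-07), and was 1.87-fold lower in Eo+ (-0.90 ± 0.09, adjusted p = 4.81e-06). The difference of Pfkm between Eo+ and ESC was small (0.22 ± 0.10, adjusted p = 0.0537) and passed without ESC replicate 6 (0.28, adjusted p = 0.0171), Eo+ replicate 6 (0.26, 0.0441), Eo− replicate 1 (0.23, 0.0323) or Eo− replicate 2 (0.22, 0.0361). Pfkl, the major subunit by FPKM, measured 263, 391, 212 and 353 CPM in ESC, 299, 401, 351 and 271 CPM in Eo−, and 228, 267, 277 and 212 CPM in Eo+. Its groups overlapped, and in the fit without a block it passed in no comparison, with differences of -0.27 ± 0.18 for Eo+ against ESC (adjusted p = 0.18) and -0.42 ± 0.18 for Eo+ against Eo− (adjusted p = 0.0659). Within the differentiation sets Pfkl was lower in Eo+ than in Eo− in all 4 (-0.39, -0.59, -0.34 and -0.35 on the log2 scale for sets 1, 2, 5 and 6), and this difference passed with the set as a block (adjusted p = 0.041), also over the day 3 libraries alone, chosen after the data were seen (-0.41 ± 0.05, adjusted p = 0.000629). The comparison of Pfkl in Eo+ with ESC passed without ESC replicate 5 (-0.43, adjusted p = 0.0242), and that with Eo− passed without ESC replicate 2 or 5 or Eo− replicate 6 (adjusted p = 0.0451, 0.0305 and 0.0464).

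**Figure D3:**
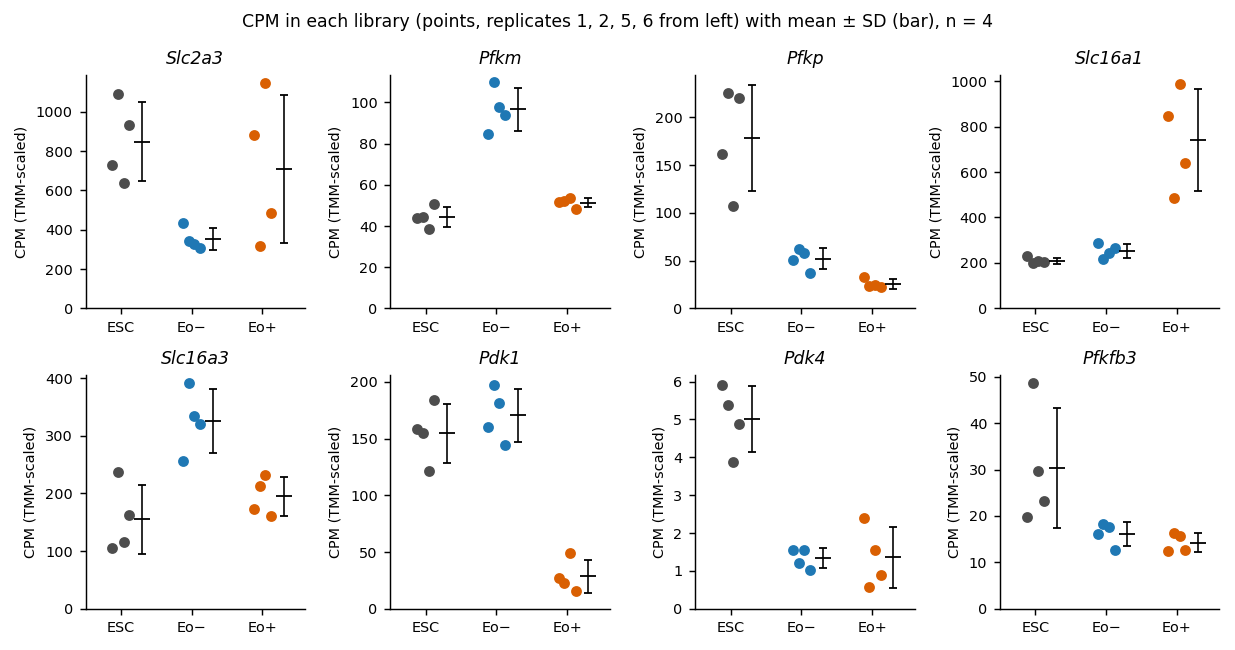
CPM (vertical axes, 1 panel per gene) of Slc2a3, Pfkm, Pfkp, Slc16a1, Slc16a3, Pdk1, Pdk4 and Pfkfb3 in each library, with the mean and SD of each group of 4. Pdk1 lies at 15.7 to 49.4 CPM in Eo+ and at 121 CPM or more elsewhere, and Slc16a1 at 484 to 989 CPM in Eo+ and at 289 CPM or less elsewhere.

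Aldoa, Eno1 and Pkm were lower in Eo+ than in both other groups. Aldoa, the main aldolase here, measured 1476, 2063, 1230 and 1765 CPM in ESC, 1381, 1939, 1783 and 1363 CPM in Eo−, and 1019, 1214, 1221 and 1008 CPM in Eo+ (-0.53 ± 0.15 against ESC, adjusted p = 0.00687; -0.52 ± 0.15 against Eo−, adjusted p = 0.0125). Eno1, an enolase, measured 2751, 3457, 2404 and 3297 CPM in ESC, 2614, 3663, 3073 and 3000 CPM in Eo−, and 1667, 2289, 2139 and 1989 CPM in Eo+ (-0.55 ± 0.13, adjusted p = 0.00164; -0.61 ± 0.13, adjusted p = 0.00165). Pkm, pyruvate kinase, measured 3686, 4683, 3185 and 4004 CPM in ESC, 3239, 4425, 3849 and 3528 CPM in Eo−, and 2480, 3039, 2859 and 2631 CPM in Eo+ (-0.49 ± 0.12, adjusted p = 0.00179; -0.44 ± 0.12, adjusted p = 0.00642). For all 3 enzymes every Eo+ library was below every library of both other groups, while ESC and Eo− overlapped. Counts per locus do not separate the M1 and M2 forms of Pkm.

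Gapdh measured 4009, 5064, 3536 and 4356 CPM in ESC, 3516, 4761, 4314 and 4164 CPM in Eo−, and 2791, 3663, 3168 and 3341 CPM in Eo+. It was lower in Eo+ than in ESC (-0.38 ± 0.12, adjusted p = 0.0088) and than in Eo− (-0.37 ± 0.12, adjusted p = 0.0179), but the libraries overlapped, and the latter call was lost without Eo− replicate 2 (-0.30, adjusted p = 0.0603) or Eo+ replicate 1 (-0.29, adjusted p = 0.0673). Pgk1, which makes the first ATP of the path, measured 600, 823, 519 and 772 CPM in ESC, 531, 653, 656 and 461 CPM in Eo−, and 388, 439, 478 and 334 CPM in Eo+. Eo+ was below every ESC library (-0.71 ± 0.16, adjusted p = 0.0011) and overlapped Eo− at 1 library of each (-0.49 ± 0.16, adjusted p = 0.0222). The call against Eo− was lost without Eo− replicate 2 or 5 (adjusted p = 0.068 and 0.0674) and without Eo+ replicate 1 or 6 (0.0547 and 0.0789). Pgam1, phosphoglycerate mutase, measured 329, 372, 306 and 366 CPM in ESC, 247, 260, 278 and 230 CPM in Eo−, and 211, 249, 209 and 216 CPM in Eo+. All day 3 libraries were below ESC (-0.43 ± 0.08 in Eo−, adjusted p = 0.000415; -0.63 ± 0.08 in Eo+, adjusted p = 1.05e-05). Between the fractions it passed without Eo+ replicate 2 (-0.25, adjusted p = 0.0323) or ESC replicate 5 (-0.20, adjusted p = 0.0497).

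Tpi1, triose phosphate isomerase, and Aldoc, the brain-type aldolase, were highest in Eo−. Tpi1 measured 459, 668, 443 and 653 CPM in ESC, 635, 785, 801 and 619 CPM in Eo−, and 531, 488, 597 and 415 CPM in Eo+. Aldoc averaged 22.7 ± 6.06, 32.1 ± 6.88 and 14.7 ± 4.36 CPM in ESC, Eo− and Eo+. Both rose in Eo− against ESC with p-values close to the threshold and overlapping libraries (Tpi1 0.37 ± 0.15, adjusted p = 0.0443; Aldoc 0.52 ± 0.22, adjusted p = 0.0499). Aldoc lost this call without ESC replicate 1, 5 or 6, Eo− replicate 2 or 5 or Eo+ replicate 1 or 2, with adjusted p of 0.0521 to 0.174 and the lowest value, 0.32, without ESC replicate 5. Tpi1 lost it without ESC replicate 1 or 5, Eo− replicate 2 or 5 or Eo+ replicate 2 (adjusted p = 0.0514 to 0.14), again with the lowest value, 0.27, without ESC replicate 5. In Eo+ against Eo−, Aldoc was 2.2-fold lower with no overlap (adjusted p = 0.00137), and Tpi1 was lower by -0.48 ± 0.15 on the log2 scale (adjusted p = 0.0166), a call lost without Eo− replicate 2 or 5 (0.0505 and 0.0512) or Eo+ replicate 6 (0.061). The lower level of Aldoc in Eo+ than in ESC (-0.62 ± 0.24, adjusted p = 0.036) was lost without ESC replicate 1, 2 or 6 or Eo+ replicate 1, 2 or 6 (adjusted p = 0.055 to 0.12), down to -0.45 without Eo+ replicate 6.

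Of the minor enolases, Eno2, the neuronal form, lay between 3.21 and 6.28 CPM in all libraries and did not pass in any comparison (log2 fold changes -0.09 to -0.02, each with an SE of 0.24). Eno3, the muscle form, averaged 27.5 ± 6.61 CPM in ESC, 34.9 ± 5.26 CPM in Eo− and 26.7 ± 2.78 CPM in Eo+. Its differences of 0.37 ± 0.16 in Eo− against ESC (adjusted p = 0.0636) and -0.37 ± 0.16 in Eo+ against Eo− (adjusted p = 0.0771) did not pass without a block. The latter passed with the differentiation set as a block (adjusted p = 0.0456). Both passed without single libraries, the former without ESC replicate 2 or 6 or Eo− replicate 1 (adjusted p = 0.0401, 0.0278 and 0.0191) and the latter without ESC replicate 1 or Eo− replicate 1 (0.0281 and 0.0264).

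The PFKFB enzymes make and degrade fructose 2,6-bisphosphate, the strongest activator of phosphofructokinase. Pfkfb3, whose kinase activity predominates, measured 19.8, 48.6, 29.7 and 23.2 CPM in ESC, 16.1, 18.2, 17.6 and 12.6 CPM in Eo−, and 12.4, 16.4, 15.6 and 12.7 CPM in Eo+. All day 3 libraries were below the ESC libraries (-1.01 ± 0.24 in Eo+, adjusted p = 0.00206; -0.84 ± 0.23 in Eo−, adjusted p = 0.00683). Pfkfb4 rose from 3.53 ± 0.59 CPM in ESC to 5.67 ± 0.138 CPM in Eo+ (0.69 ± 0.17, adjusted p = 0.00205) and to 4.9 ± 1.13 CPM in Eo− (0.46 ± 0.17, adjusted p = 0.0287). The latter was lost without ESC replicate 2 or 6 (adjusted p = 0.0536 and 0.0823) or Eo− replicate 1 (0.0936), and without that Eo− library Pfkfb4 passed between the fractions (0.39, adjusted p = 0.0446). Pfkfb2, the heart-type enzyme, was lowest in Eo− at 9.8 ± 1.86 CPM, beside 14.2 ± 2.22 CPM in ESC (-0.54 ± 0.15, adjusted p = 0.00636) and 14.5 ± 1.76 CPM in Eo+ (0.57 ± 0.15, adjusted p = 0.00624). The assembled locus of Pfkfb2 also holds C4bp, so its counts cannot be split between these genes.

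Ldha, the subunit that favours the reduction of pyruvate to lactate, was the exception among the abundant enzymes. It measured 1524, 2120, 1623 and 2218 CPM in ESC, 2142, 2673, 2452 and 2182 CPM in Eo−, and 2281, 3137, 2682 and 2694 CPM in Eo+. Every Eo+ library was above every ESC library (0.54 ± 0.13, adjusted p = 0.00162), and within each differentiation set Eo+ was also above Eo−, by 0.09 to 0.30 on the log2 scale. This difference passed neither in the fit of all 12 libraries (0.19 ± 0.13, adjusted p = 0.231) nor with the set as a block in that fit (0.19 ± 0.08, adjusted p = 0.0703). It passed with the block over the day 3 libraries alone, a fit chosen after the data were seen (0.19 ± 0.05, adjusted p = 0.0171). The rise in Eo− against ESC (0.35 ± 0.13, adjusted p = 0.027) was lost without ESC replicate 1 or 5 (adjusted p = 0.0935 and 0.0818) or Eo− replicate 2 or 5 (0.083 and 0.0599). Ldhb, the subunit that favours the reverse reaction, averaged 90.5 ± 11.9, 126 ± 13.5 and 104 ± 8.43 CPM in ESC, Eo− and Eo+. It rose in Eo− (0.48 ± 0.10, adjusted p = 0.00095). It was lower in Eo+ than in Eo− (-0.27 ± 0.10, adjusted p = 0.0377), a call lost without Eo− replicate 2 or 5 or Eo+ replicate 2 or 6 (adjusted p = 0.0642 to 0.128), and in Eo+ against ESC it passed only without ESC replicate 2 (0.29, adjusted p = 0.0171) or Eo+ replicate 2 (0.27, adjusted p = 0.0342) among the fits that left out 1 library.

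Slc16a1 (MCT1), a monocarboxylate carrier that moves lactate and pyruvate in either direction, showed the largest rise among the 31 genes in both comparisons that involve Eo+. It measured 229, 201, 207 and 203 CPM in ESC, 289, 217, 246 and 267 CPM in Eo−, and 848, 484, 989 and 638 CPM in Eo+. Every Eo+ library lay above all 8 others, 3.40-fold over ESC (1.76 ± 0.18, adjusted p = 7.86e-07) and 2.81-fold over Eo− (1.49 ± 0.17, adjusted p = 1.72e-05). The spread within Eo+ was wide, with replicates 1 and 5 above 2 and 6, and the difference from Eo− was positive in each set (1.55, 1.16, 2.01 and 1.26 on the log2 scale for sets 1, 2, 5 and 6). Summed visceral endoderm markers were likewise highest in Eo+ replicates 1 and 5 (80.4 and 40.9 CPM, beside 4.42 and 16.8 CPM in 2 and 6). Without these 2 libraries Slc16a1 was still higher in Eo+, by 1.41 ± 0.12 against ESC (adjusted p = 1.01e-06) and 1.14 ± 0.12 against Eo− (adjusted p = 2.25e-05). Slc16a3 (MCT4), a carrier associated with lactate export, measured 106, 237, 115 and 163 CPM in ESC, 257, 391, 335 and 321 CPM in Eo−, and 173, 213, 232 and 161 CPM in Eo+. It was highest in Eo−, 2.19-fold above ESC (1.13 ± 0.21, adjusted p = 0.000435), and lower in Eo+ than in Eo− (-0.74 ± 0.21, adjusted p = 0.0109). Against ESC, Eo+ overlapped (0.39 ± 0.22, adjusted p = 0.126) and passed without ESC replicate 2 (0.62, adjusted p = 0.00776).

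Pdk1, a kinase that inactivates pyruvate dehydrogenase, separated Eo+ from the other groups by the largest fold among the 31 genes between the fractions. It measured 158, 155, 121 and 184 CPM in ESC, 160, 197, 181 and 144 CPM in Eo−, and 26.9, 22.9, 49.4 and 15.7 CPM in Eo+. ESC and Eo− overlapped (0.15 ± 0.20, adjusted p = 0.535), while Eo+ was 5.77-fold below ESC (-2.53 ± 0.24, adjusted p = 5.15e-07) and 6.40-fold below Eo− (-2.68 ± 0.24, adjusted p = 2.1e-06). By differentiation set the difference from Eo− was -2.57, -3.11, -1.88 and -3.19 on the log2 scale. The other kinases took other courses. Pdk3 measured 41.5, 46.6, 43.2 and 49 CPM in ESC, 47.7, 48.5, 52.6 and 48.6 CPM in Eo−, and 40.1, 45.4, 39.6 and 40.8 CPM in Eo+. ESC overlapped both fractions, whereas every Eo+ library was below every Eo− library, by -0.25 ± 0.07 on the log2 scale (adjusted p = 0.0117). Pdk2 rose on day 3 from 5.01 ± 1.03 CPM in ESC to 9.84 ± 1.18 CPM in Eo− (0.99 ± 0.15, adjusted p = 5.83e-05) and 8.89 ± 0.614 CPM in Eo+ (0.86 ± 0.15, adjusted p = 0.000161). Pdk4, known for its induction in fasting, was a rare message, at 5.91, 5.38, 3.88 and 4.88 CPM in ESC, 1.54, 1.22, 1.56 and 1.03 CPM in Eo−, and 2.41, 0.572, 1.56 and 0.883 CPM in Eo+. It fell 4.21-fold in Eo+ (adjusted p = 5.2e-05) and 3.77-fold in Eo− (adjusted p = 0.000135), with no overlap with ESC. In Eo− against ESC, Pdk3 passed without ESC replicate 6 (0.17, adjusted p = 0.0498).

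The pyruvate dehydrogenase subunits had the smallest standard errors among the 31 genes. Pdhb, the E1 beta subunit, measured 171, 172, 182 and 176 CPM in ESC, 99.9, 100, 104 and 102 CPM in Eo−, and 94.6, 98.6, 91.2 and 97.3 CPM in Eo+. It fell in both fractions (-0.88 ± 0.05 in Eo+, adjusted p = 5.25e-09; -0.79 ± 0.05 in Eo−, adjusted p = 3.83e-08). Pdha1, the E1 alpha subunit that the kinases phosphorylate, measured 283, 249, 289 and 280 CPM in ESC, 206, 195, 202 and 203 CPM in Eo−, and 223, 236, 214 and 235 CPM in Eo+. It fell in Eo− (-0.45 ± 0.06, adjusted p = 1.95e-05) and in Eo+ (-0.28 ± 0.06, adjusted p = 0.000749). Its slightly higher level in Eo+ than in Eo− (0.17 ± 0.06, adjusted p = 0.0278) was found in all 4 sets, but was lost without Eo− replicate 2 or 5 (adjusted p = 0.0702 and 0.0518) or Eo+ replicate 2 or 6 (0.0692 and 0.0679).

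**Figure D4:**
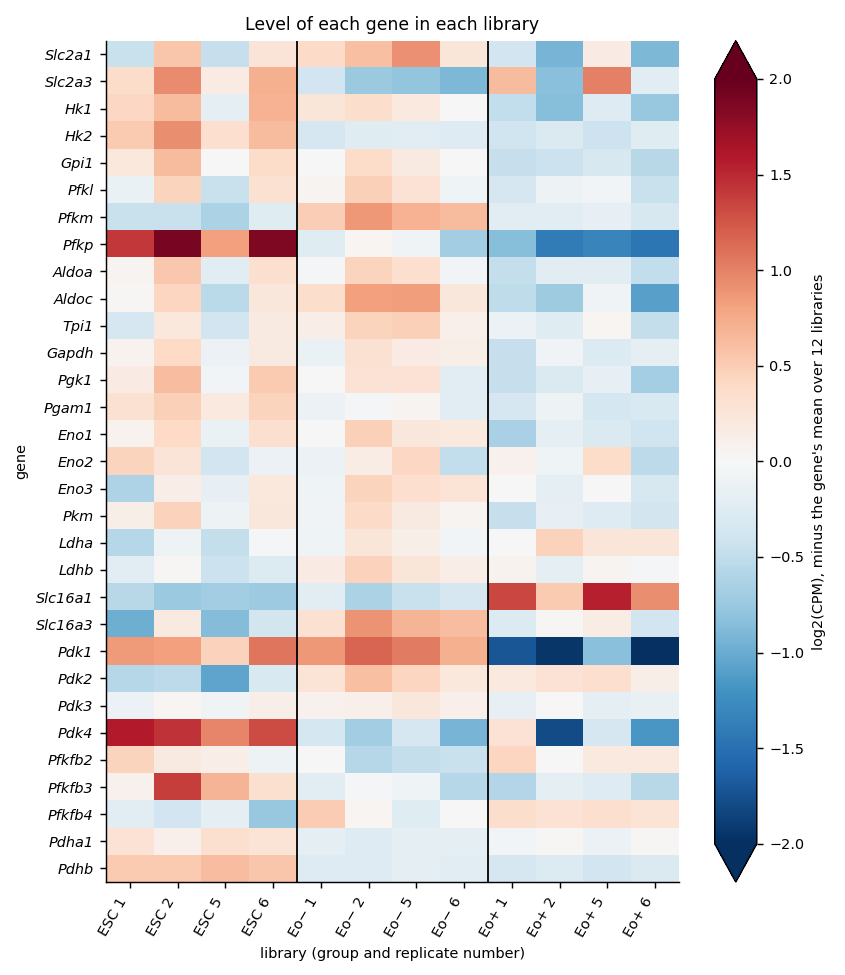
Log2 CPM minus the mean of the gene over the 12 libraries (colour scale) for the 31 genes (rows, by role) in each library (columns, by group and replicate number). The Eo+ columns are low for most enzymes from Hk1 to Pkm and for Pdk1 and high for Slc16a1, and ESC replicates 2 and 6 are above ESC replicates 1 and 5 in many rows.

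Isozyme shares of a step's RNA were computed from FPKM (counts scaled to exon length and library size) among the listed genes only. In 30 of 54 comparisons the 4 libraries of the groups did not overlap (11, 8 and 11 of 18 for Eo+ against ESC, Eo− against ESC and Eo+ against Eo−). The shares of a step add up to the whole, so a fall of any isozyme raises the others and these comparisons are not independent. No like count was made over other genes. The exact two-sided permutation test of 4 against 4 cannot go below p = 0.0286, which became 0.0514 after adjustment over the 54 tests, so that none passed. Slc2a1 supplied 35.7 ± 3.06% of the glucose transporter FPKM in ESC, 65.8 ± 6.01% in Eo− and 34.5 ± 6.53% in Eo+ (n = 4 each), with Slc2a3 as the remainder. Eo− thus had Slc2a1 as the major transporter, and ESC and Eo+ had Slc2a3. For phosphofructokinase, Pfkp supplied 27.5 ± 2.63% in ESC and 7.36 ± 0.928% and 5.79 ± 1.27% in Eo− and Eo+, Pfkm 23.1 ± 3.91, 44.1 ± 2.96 and 37.1 ± 1.62%, and Pfkl 49.4 ± 2.14, 48.5 ± 2.09 and 57.1 ± 2.59%.

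Among the PDH kinases, Pdk1 supplied 48.3 ± 3.07% of the FPKM in ESC, 48.8 ± 2.98% in Eo− and 15.6 ± 6.76% in Eo+, where Pdk3 supplied 74 ± 7.01%, while the summed FPKM of the 4 kinases was 37.1 ± 4.13, 42.7 ± 2.93 and 21.7 ± 2.1 in ESC, Eo− and Eo+. Slc16a1 supplied 61.9 ± 9.74, 47.7 ± 7.29 and 80.7 ± 5.64% of the monocarboxylate transporter FPKM in ESC, Eo− and Eo+, and the summed level of both carriers was 73 ± 8.3, 119 ± 1.85 and 199 ± 55.7 FPKM. Hk2, Aldoa, Eno1 and Ldha were the major forms among the listed genes in all 3 groups. Of the FPKM of the listed genes, Hk2 supplied 83.8 to 89.3% of hexokinase by group mean, Aldoa 98.4 to 98.9% of aldolase, Eno1 95.7 to 97% of enolase and Ldha 85.2 to 88.6% of lactate dehydrogenase. Eno1b, a copy of Eno1 outside the list, is not in the enolase sum, and with it the share of Eno1 would be smaller. Eno1b averaged 138, 143 and 91.1 FPKM in ESC, Eo− and Eo+, beside 530, 578 and 372 FPKM for Eno1.

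**Figure D5:**
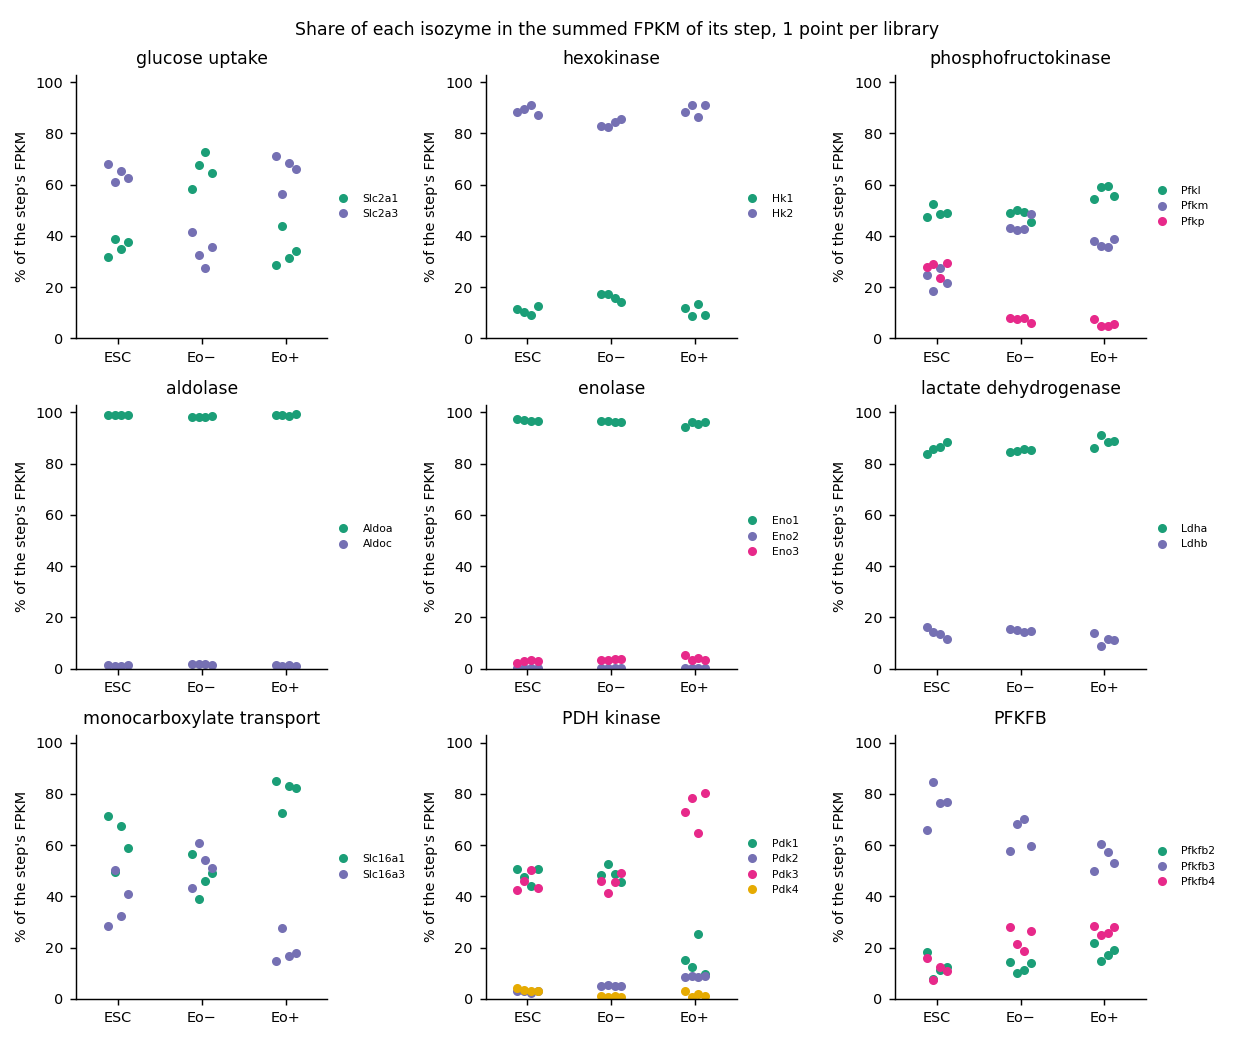
Percent of a step's summed FPKM supplied by each isozyme (vertical axis, each library as a point) in ESC, Eo− and Eo+ for 9 steps. The sums hold listed genes only, so Eno1b and Pfkfb1, a further PFKFB gene, are left out. By group mean, Pdk1 takes 48.3% of the PDH kinases in ESC and 15.6% in Eo+, and Slc2a1 takes 65.8% of the glucose transporters in Eo− and about a like share in ESC and Eo+ (35.7 and 34.5%).

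Libraries within a group differed for these genes in a shared way. ESC replicates 2 and 6 were both above replicates 1 and 5 for 21 of the 31 genes, an order found for 21.0% of all loci. In the same libraries the summed feeder markers ran the other way (247 and 193 CPM in replicates 1 and 5, 120 and 102 CPM in 2 and 6). Without ESC replicates 1 and 5, 24 genes passed in Eo+ against ESC and 16 in Eo− against ESC (67.4% and 56.2% of all loci), and Ldha, Tpi1, Aldoc and Pfkfb2 were no longer called in the latter. Slc2a1 (-0.92, adjusted p = 0.0106), Pfkl (-0.60, 0.004), Tpi1 (-0.39, 0.029) and Pdk3 (-0.20, 0.0425) were then also lower in Eo+ than in ESC, and Hk1 (-0.47, 0.0124), Gpi1 (-0.36, 0.019) and Pgk1 (-0.49, 0.0209) lower in Eo− than in ESC. Without ESC replicates 2 and 6 the numbers were 20 and 19 (66.6% and 55.4%), Slc2a3 and Pfkfb4 were no longer called in Eo− against ESC, and Aldoa (-0.28, adjusted p = 0.128), Gapdh (-0.22, adjusted p = 0.135) and Aldoc (-0.33, adjusted p = 0.315) were no longer called in Eo+ against ESC. In that fit Pfkm (0.31, adjusted p = 0.0234), Ldhb (0.31, 0.0281) and Slc16a3 (0.80, 0.00189) were higher in Eo+ than in ESC, and Slc2a1 (0.99, 0.00929), Pfkl (0.47, 0.0276), Eno3 (0.64, 0.00768) and Pdk3 (0.22, 0.0332) higher in Eo− than in ESC. For Slc2a1, Pfkl and Pdk3 the ESC pair left out thus decided which comparison with ESC passed. In Eo+, replicates 1 and 5 were both above 2 and 6 for 14 genes (26.7% of all loci), among them Slc2a3, Slc16a1 and Pdk1. Without Eo+ replicates 1 and 5, 21 genes passed against ESC, Gapdh no longer among them (-0.26, adjusted p = 0.105) but Slc2a1 (-0.88, adjusted p = 0.0115) and Slc2a3 (-1.07, adjusted p = 0.000775) newly lower, and 17 passed against Eo− (66.5% and 41% of all loci). The comparison with Eo− then lost Slc2a3, Gapdh, Pdk3 and Pfkfb2 and gained Pdk4 (-0.90, adjusted p = 0.0315).

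Near-identical copies limit some of these counts, since reads that fit more than 1 place were not counted. Gapdh has 77 other genes with at least 200 bp at 95% identity, and 71 of them that were counted held 1.11 to 2.03% of the counts of Gapdh. Copies of Eno1, Eno1b among them, held 7.56 to 9.21% of its counts, that of Ldhb 5.04 to 5.93% and that of Gpi1 1.8 to 3.59%. Levels of these genes are uncertain by the reads lost to their copies.

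Genes next to this path were taken from 5 further lists, whose counts stand beside 35.8% of all loci higher and 36.1% lower in Eo+ against ESC, and 23.0% higher and 24.7% lower in Eo+ against Eo−. Of 17 tested genes for other isozymes and adjoining steps, 5 rose and 5 fell in Eo+ against ESC, and 2 were higher and 6 lower in Eo+ than in Eo−. Hkdc1, a further hexokinase, rose in Eo+ from 0.312 to 6.51 CPM by group mean (4.26 ± 0.67, adjusted p = 5.87e-05), and measured 7.72, 1.86, 11.1 and 5.31 CPM in Eo+ replicates 1, 2, 5 and 6, so that it followed the same order of libraries as Slc16a1. Tigar, which lowers fructose 2,6-bisphosphate, fell in both fractions (-1.62 ± 0.08 in Eo+, adjusted p = 1.06e-09; -1.28 ± 0.07 in Eo−, adjusted p = 1.75e-08). The muscle mutase Pgam2 was lower in Eo+ than in both groups (-2.26 ± 0.33 and -2.07 ± 0.33, adjusted p = 3.07e-05 and 0.000215).

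Of 10 other genes of pyruvate entry, 5 rose and 3 fell in Eo+ against ESC, and 3 were higher and 3 lower in Eo+ than in Eo−, again beside 35.8% and 36.1%, and 23.0% and 24.7%, of all loci. The subunits of the mitochondrial pyruvate carrier differed in direction, Mpc1 falling in Eo+ (-0.95 ± 0.14, adjusted p = 2.62e-05) and Mpc2 rising (0.45 ± 0.12, adjusted p = 0.00403). Dld, the E3 subunit of pyruvate dehydrogenase, rose in Eo+ (0.36 ± 0.07, adjusted p = 0.000403), and Pdhx, its E3-binding protein, fell (-0.22 ± 0.06, adjusted p = 0.00597). Of 8 genes of the pentose phosphate path, 3 rose and 2 fell, all by less than 2-fold, with H6pd at 0.49 ± 0.14 and Rpe at -0.38 ± 0.08. Of 4 tested genes of gluconeogenesis, 1 rose, G6pc3, a glucose 6-phosphatase (1.26 ± 0.12, adjusted p = 3.93e-07), and 1 fell, Fbp2, whose message was rare (0.985 CPM in ESC), named after its value was seen.

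Of 20 genes of the hypoxia response outside glycolysis, a list of known HIF targets together with Hif1a, Epas1, Arnt and Vhl of the oxygen-sensing path itself, 7 rose and 7 fell in Eo+ against ESC, 2 rose and 5 fell in Eo− against ESC, and 8 were higher and 3 lower in Eo+ than in Eo− (35.8, 36.1, 30.9, 31.3, 23.0 and 24.7% of all loci). Their median log2 fold changes were -0.01, -0.12 and 0.03. Adm, adrenomedullin, and Epas1, which encodes HIF2 alpha, fell in Eo+ (-3.17 ± 0.49 and -3.10 ± 0.27, adjusted p = 5.14e-05 and 2.43e-07). Car12, a carbonic anhydrase, and Egln3, a prolyl hydroxylase that acts on HIF, rose (1.55 ± 0.24 and 1.04 ± 0.28, adjusted p = 5.88e-05 and 0.00448). A part of hypoxia or of HIF in the changes of the 31 genes was not tested.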

How the data were processed

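Poly(A) RNA of 12 libraries was measured, 4 per group, grouped by the labels. The authors mapped stranded paired reads of 100 bp to mm10 with STAR (version 2.0.4 in the submitters' processing notes, which differs from the study's methods) under Ensembl release 77, assembled loci with Cufflinks 2.2.1 and Cuffmerge, and used HTSeq 0.6.1 (union mode, reverse strand) to count reads per locus. Whole-number counts were deposited unscaled. A deposited normalized table holds a signal near CPM, the authors' counts divided by 1 constant per library, and was used only as an alternative scaling. The deposited transcript annotation (other values, exon positions) gave locus lengths. HTSeq set aside 22.4 to 26.2% of alignments as not unique, and these entered no sum. No column of other samples was present (0).

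FPKM was computed from counts and summed exon length. Loci with a mean FPKM above 0.1 in at least 1 group that were protein-coding or long noncoding were tested (17911). Counts were tested with limma 3.58.1 (voom, R 4.3.3), with TMM sizes from edgeR 4.0.16, 1 mean per group over 12 libraries, 13.5 degrees of freedom, two-sided, with Benjamini-Hochberg adjustment over all tested loci and a threshold of 0.05. Adjusted p-values in the text come from this fit unless a library or pair is said to be left out or a block is named. Where a library was left out the fit pooled the spread over all groups. Isozyme shares were tested by exact permutation (scipy 1.17.1). Copies were searched with BLAST 2.17.0 among GENCODE M21 transcripts, in which 97.7% of matched transcript identifiers were found. On simulated counts of 17911 loci for Eo+ against ESC, 50 loci each were changed 1.5-, 2-, 4- and 8-fold and the rest were left unchanged. The fit recovered 58% of 50 loci changed 2-fold and 30% of 50 changed 1.5-fold. In the real comparison 71.9% of loci passed, so the adjustment was stricter in the simulation. These percentages therefore do not give the sensitivity of the reported fit.

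The same-numbered Eo− and Eo+ libraries deviated together from their group means (correlations 0.620, 0.298, 0.371 and 0.426), and the study's methods name 4 differentiation sets that include ESC. For ESC replicates 1, 2, 5 and 6 the correlations were 0.259, 0.460, -0.118 and -0.028 with the same-numbered Eo− and 0.137, 0.038, -0.063 and -0.091 with Eo+, so that not every pair exceeded 0.1 and ESC was not treated as paired. The replicate block over all libraries nevertheless gave the ESC libraries their set numbers. Members, gene lists, tests and alternatives were chosen with earlier results of these data known. Every member was described, with values in every library for those that changed at least 2-fold against ESC without overlap and for the most abundant gene (FPKM) of each step. From each neighbouring list, called genes were named by the size of their change in Eo+ against ESC, at most 2 per direction, where a group mean reached 1 CPM. A gene that this rule names is not reported here. Pairs of libraries to leave out were chosen after the data were seen. The counting floor (3 counts) lay at 0.00358 to 0.00463 CPM, a limit for counting error alone because no molecular identifiers were used.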

Additional observations from a re-analysis of the deposited data

Results flagged for a closer look

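Among 96 sets of 4 libraries examined, 1 held a library set apart from the rest. Pgam1 measured 249 CPM in Eo+ replicate 2 and 209 to 216 CPM in the other Eo+ libraries, a gap of 0.837 of the range of the group, above the critical value for 4 libraries. Chance alone marks about 1 in 20 such sets. Without this library Pgam1 was lower in Eo+ than in Eo− by -0.25 on the log2 scale (adjusted p = 0.0323, limma). With the library kept, the difference was -0.20 (adjusted p = 0.0663) and passed with the replicate block (adjusted p = 0.0464), with library totals (0.0258) and with the 1 CPM filter (0.0321).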

How the results depend on the processing

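No called fold change of the 31 genes reversed under any alternative. Of 57 calls, 46 held under all 22 planned settings that kept the threshold (19 of 20, 13 of 17 and 14 of 20 for Eo+ against ESC, Eo− against ESC and Eo+ against Eo−). Among these settings, the restriction to loci with a fully matching reference transcript repeated the main fit and could lose no call, since every member had such a transcript. The other 11 calls were named in the report with the libraries that decided them, and some also missed the threshold under another processing. For Tpi1, Ldha and Aldoc in Eo− against ESC the call was also lost in DESeq2 (adjusted p = 0.101, 0.0751 and 0.0877), and for Tpi1 and Aldoc in edgeR (0.06 and 0.0789). With DESeq2 size factors in voom they were at 0.0776, 0.0558 and 0.0728, and with a filter at 1 CPM Tpi1 and Aldoc were at 0.0762 and 0.0705. Slc2a3 in Eo+ against Eo− was lost with library totals (0.0572), the 1 CPM filter (0.0508), no filter (0.0603) and only the groups compared (0.0644), Pdha1 there with library totals (0.0701) and the 1 CPM filter (0.073), and Ldhb there with no filter (0.0512). Pfkfb4 in Eo− against ESC was lost with only the groups compared (0.0502), and Aldoc in Eo+ against ESC with no filter (0.0601). Other genes passed under some settings only. In Eo+ against Eo− these were Pfkl with DESeq2 (0.0499), library totals (0.046), the 1 CPM filter (0.0496) and only the groups compared (0.0202), Pgam1 with library totals (0.0258) and the 1 CPM filter (0.0321), and Eno3 with only the groups compared (0.0264). In Eo+ against ESC they were Pfkm with library totals (0.019), the deposited scaling (0.0356) and no filter (0.0254), Ldhb with library totals (0.0353) and no filter (0.0366), and Pdk3 with the 1 CPM filter (0.029). In Eo− against ESC they were Slc2a1 with library totals (0.0453), no filter (0.0456) and only the groups compared (0.044), Eno3 with library totals (0.0251), the deposited scaling (0.0499) and no filter (0.0435), Pdk3 with library totals (0.0154) and no filter (0.0469), and Slc16a1 with only the groups compared (0.023). Requiring at least 2-fold left 5, 5 and 5 genes in these comparisons, from 20, 17 and 20, and 14, 12 and 11 genes of the neighbouring lists, from 39, 26 and 32. Leaving out 1 library at a time gave 19 to 22, 14 to 18 and 14 to 22 genes, 34 to 39, 23 to 30 and 25 to 33 genes of the neighbouring lists, log2 fold changes of Eomes of 3.39 to 3.61, 1.45 to 1.67 and 1.85 to 2.05, and 11 to 13, 8 to 11 and 11 to 13 isozyme shares without overlap. The fit with the replicate block gave 20, 17 and 23 genes (74.8, 66.1 and 53.3% of all loci). Beside the gains in Eo+ against Eo− given in the report, its only changes were in Eo− against ESC, where the set numbers were not taken to pair the libraries (Eno3 at 0.36, adjusted p = 0.0473, and Aldoc at 0.54, adjusted p = 0.0502). The fit of the day 3 libraries alone with the block (24 genes, beside 58.0% of all loci), and the fits that left out a pair of libraries, were chosen after seeing the data. Rare messages such as Pdk4 rest on far fewer counts than Gapdh, and RNA levels do not give enzyme activity or flux.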
